A study of Saccharomyces cerevisiae with 12 samples.

Results

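The 38 genes described here encode the nuclear subunits of the respiratory chain and ATP synthase of budding yeast (Saccharomyces cerevisiae), with a few close partners. They were taken by systematic name from the 7126 features of a table of transcript levels. The rule names genes and uses no measured value, but it was set with earlier results of these data known. The set holds 4 genes of complex II, 9 of complex III with cytochrome c1 (CYT1), 8 of complex IV and 13 of complex V. Its other members are the electron carrier CYC1, the ATPase inhibitors INH1 and STF1, and the regulator HAP4. All 38 passed the filter of a mean of at least 1 RPKM, a read density scaled to exon length and library size, and no member had fewer than 232 reads in a sample.

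RNA sequencing covered 12 samples in 4 groups of 3, all grown untreated in SDC-Leu, a synthetic medium without leucine that keeps the plasmid in the cells. Cells called sac3∆ carried pRS315 as an empty plasmid in a sac3∆ background, and R288D cells carried Sac3 R288D, a form with 1 substituted residue, on pRS315 in that background. Cells called cdk8∆ carried empty pRS315 and have no labelled change at SAC3. Wild type here means sac3∆ cells whose pRS315 plasmid supplies 13MYC-SAC3, so it shares the chromosomal sac3∆ deletion with the sac3∆ and R288D groups, and SAC3 in it came from a plasmid. SAC3 encodes the scaffold of TREX-2, a complex at the inner face of the nuclear pore, and CDK8 (SSN3 in the table) encodes the cyclin-dependent kinase of Mediator. The comparisons ask how far loss of Sac3, a substitution in it and loss of the Mediator kinase change the same transcripts. By the labels, cdk8∆ differs from wild type at CDK8 and also in the chromosomal sac3∆ and the tagged SAC3 on a plasmid. In cdk8∆ minus wild type these differences cannot be told apart. The R288D label names no 13MYC tag, so R288D may differ from wild type in the tag as well as in the residue. In R288D minus wild type the tag and the residue cannot be told apart either.

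The targeted genes matched the labels. SAC3 averaged 0.0458 RPKM in sac3∆, 63.7 in R288D and 33.5 in cdk8∆, against 51.3 in wild type. SSN3 averaged 47.8 RPKM in sac3∆, 56.9 in R288D and 0.205 in cdk8∆, against 49.7 in wild type. The samples held 16.18 to 22.44 M reads. The library sizes behind the RPKM values were scaled by 0.969 to 0.999 (sac3∆), 0.967 to 0.991 (R288D), 1.14 to 1.18 (cdk8∆) and 0.864 to 0.892 (wild type) relative to these reads. Undoing that scaling would add 0.16 to every log2 change of sac3∆ from wild type, 0.15 to every change of R288D and 0.38 to every change of cdk8∆. Changes are therefore relative to the other transcripts of the same sample, and fewer copies of a transcript per cell cannot be told apart from more of the rest.

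Yeast mitochondria pass electrons through ubiquinone to complex III (cytochrome bc1), then through cytochrome c to complex IV (cytochrome c oxidase), and the proton gradient so built drives complex V, the ATP synthase. Complex II, succinate dehydrogenase, feeds electrons in from the TCA cycle. Most of the subunits are encoded in the nucleus, and many of their genes are activated by the Hap2/3/4/5 complex, which binds CCAAT boxes and whose activating subunit, Hap4, is made in larger amounts in cells that respire. The core subunits encoded in mitochondrial DNA could not be read here: 7 of 7 such genes were listed at 0 in every sample.

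CCAAT on either strand (CCAAT or ATTGG) stood within the 300 bases before the start codon in 33 of the 38 genes (86.84%), against 2509 of 6001 nuclear protein-coding genes (41.81%). The longer ACCAAT, which contains CCAAT, stood there in 18 of 38 (47.37%), against 924 of 6001 (15.4%). All 13 genes of complex V and all 4 of complex II had a CCAAT, and CYC1, CYT1, COR1, COX4 and STF1 had none in this window. The following stretches, from the R64 genome of RefSeq, are written on the coding strand with the CCAAT or ATTGG in capitals. They belong to genes whose values are given below and show the box in its setting.
SDH1 (chrXI:171362-171402, minus strand): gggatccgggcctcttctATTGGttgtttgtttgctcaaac
QCR6 (chrVI:224990-225030, minus strand): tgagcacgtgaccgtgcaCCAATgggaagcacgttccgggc
COX5A (chrXIV:531537-531577, plus strand): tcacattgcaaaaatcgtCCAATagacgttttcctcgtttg
ATP1 (chrII:36768-36808, plus strand): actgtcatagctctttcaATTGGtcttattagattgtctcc
ATP2 (chrX:647404-647444, plus strand): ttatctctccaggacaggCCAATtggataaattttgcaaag
ATP3 (chrII:315362-315402, plus strand): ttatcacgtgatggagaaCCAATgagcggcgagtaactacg
ATP14 (chrXII:722548-722588, minus strand): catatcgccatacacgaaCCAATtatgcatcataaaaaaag
The next pair of stretches, 300 to 101 bases before the start codon, belongs to INH1, which fell in all 3 mutants, and CYC1, which moved in opposite directions in sac3∆ and cdk8∆. INH1 carries its CCAAT 232 bases before the start codon, in capitals. CYC1 has no CCAAT there, and the capitals mark TGGTTGGT, the core of the site through which the Hap complex is known to act on this gene.
INH1 (chrIV:134879-135078, plus strand): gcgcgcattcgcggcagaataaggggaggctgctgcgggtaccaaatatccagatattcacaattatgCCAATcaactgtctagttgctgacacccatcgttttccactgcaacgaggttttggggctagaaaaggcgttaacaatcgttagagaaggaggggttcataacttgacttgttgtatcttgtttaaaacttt
CYC1 (chrX:526035-526234, plus strand): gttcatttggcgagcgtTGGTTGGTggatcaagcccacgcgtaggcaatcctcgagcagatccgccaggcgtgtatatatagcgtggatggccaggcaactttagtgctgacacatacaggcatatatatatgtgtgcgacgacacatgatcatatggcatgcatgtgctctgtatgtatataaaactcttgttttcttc
TGGTTGGT or its reverse complement ACCAACCA was searched after CYC1 was seen to lack CCAAT. It stood in the same window of 58 of 6001 genes (0.967%), and CYC1, SDH3 and ATP14 were the members among them. A match of letters is a description of the window and not a measured binding site.

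Most of the 38 genes had lower transcript levels in each mutant than in wild type. Changes are differences of mean log2(RPKM + 1) with the standard error (SE) of limma, tested over 6124 features with adjustment over all of them and a threshold of 0.05. In sac3∆, 29 members fell and 1 rose, where 24.1% of all features were lower and 27.4% higher by the same test. R288D had 30 members lower and 1 higher, against a background of 24.4% lower and 26.3% higher. In cdk8∆, 28 fell and 1 rose, against a background of 30.6% lower and 31.5% higher. Samples of sac3∆ lay all below wild type in 27 members and all above in 1, against 27.4% and 31.9% of all features, and those of R288D in 27 and 1, against 26.2% and 28.7%. For cdk8∆ these counts were 28 and 1, against 35.9% and 37%. The median log2 change of the 38 was -0.40 in sac3∆, -0.41 in R288D and -0.48 in cdk8∆, while the median of all features tested was 0.04, 0.02 and 0.01. All 3 comparisons share the wild type samples, so their likeness is no independent evidence.

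The falls depended in part on scaling. With the medians of all samples set equal, 32 members were lower in sac3∆, 34 in R288D and 28 in cdk8∆. The shares of all features lower and higher became 31.91% and 19.35% in sac3∆, 31.16% and 19.74% in R288D, and 35.71% and 26.83% in cdk8∆. With quantile normalization, which forces the same distribution of values on every sample, 21 members were lower in sac3∆, 20 in R288D and 16 in cdk8∆, where 8 were then higher. The shares of all features lower and higher were then 23.91% and 22.62% in sac3∆, 22.13% and 21.15% in R288D, and 28.12% and 29.56% in cdk8∆. The median change of the 38 was then -0.22 in sac3∆, -0.20 in R288D and -0.13 in cdk8∆.

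Sorted by their calls, 23 members were lower in all 3 mutants, among them 11 of complex V, 5 of complex IV, 6 of complex III, and INH1. COX7, QCR10, SDH1, SDH3 and STF1 passed the test as lower in sac3∆ and R288D, and QCR9 in R288D alone. ATP18, ATP19, COX9 and QCR8 passed it as lower in cdk8∆ alone. COX12, SDH2 and SDH4 passed it in no comparison with wild type. HAP4 and CYC1 had a call in each mutant, with opposite signs in cdk8∆ and in the pair of SAC3 mutants.

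**Figure D1:**
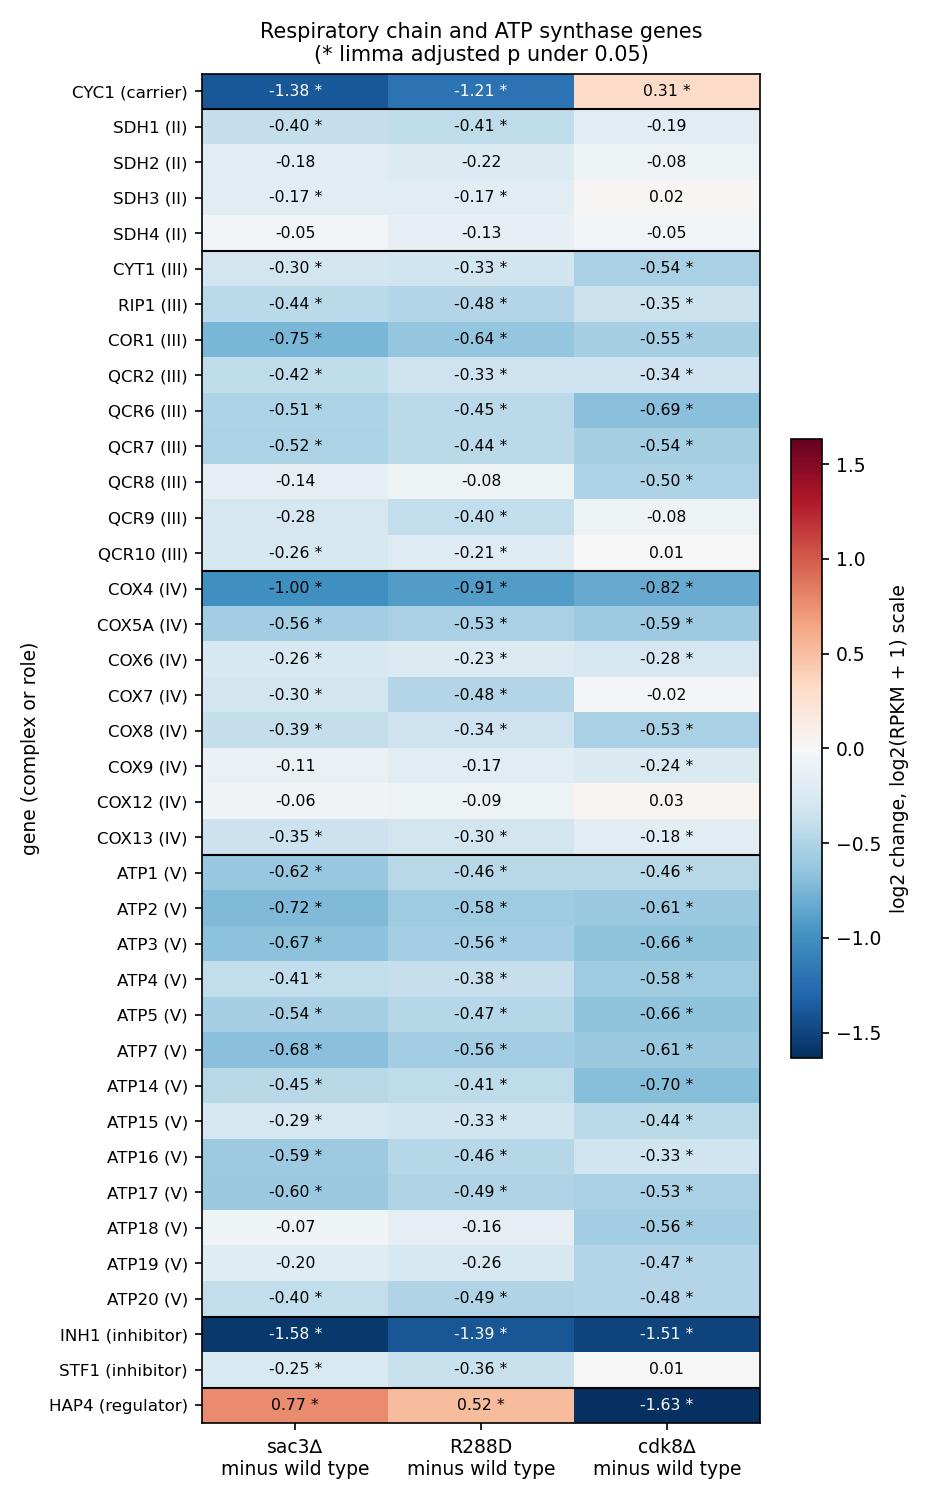
Log2 change from wild type of each of the 38 genes (rows, with the complex or role in brackets) in sac3∆, R288D and cdk8∆ (columns), on the log2(RPKM + 1) scale, blue for lower and red for higher, with an asterisk at a limma adjusted p under 0.05. Most cells are blue in all 3 columns, CYC1 and HAP4 change sign in the cdk8∆ column, and INH1 is between -1.58 and -1.39 throughout.

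HAP4 (YKL109W, chromosome XI, 232227 to 233891, plus strand) encodes the activating subunit of the Hap complex. Its level was 572, 534 and 506 RPKM in the sac3∆ samples, 409, 518 and 428 in the R288D samples, 96.6, 104 and 100.1 in the cdk8∆ samples, and 301, 326 and 313 in wild type. Every sac3∆ and R288D sample lay above every wild type sample, and every cdk8∆ sample lay below. The log2 change was 0.77 ± 0.080 (SE) in sac3∆ (adjusted p by limma = 1.00e-05), 0.52 ± 0.080 in R288D (adjusted p = 0.000229) and -1.63 ± 0.080 in cdk8∆ (adjusted p = 1.16e-08). In relative terms, the mean was 171% of wild type in sac3∆, 144% in R288D and 32.0% in cdk8∆. The R288D samples overlapped those of sac3∆, and the difference of 0.26 between these mutants (95% interval 0.08 to 0.43) had an adjusted p of 0.216 by limma. Without the second R288D sample that difference was 0.36 and passed the test (adjusted p by limma = 0.0074).

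The other Hap subunits moved less. HAP2 and HAP3 passed the test in none of the 3 mutants as reported, while HAP3 in cdk8∆ passed as lower with medians set equal (-0.23, adjusted p by limma = 0.0172) and with quantile normalization (-0.32, adjusted p = 0.00276). HAP5 passed it only in cdk8∆, at 0.40 (adjusted p by limma = 0.00124).

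CYC1 (YJR048W, chromosome X, 526335 to 526664, plus strand) encodes iso-1-cytochrome c, the main carrier between complexes III and IV. It measured 51.0, 54.9 and 43.2 RPKM in sac3∆, 51.3, 52.1 and 66.1 in R288D, 171, 157 and 161 in cdk8∆, and 135, 127 and 130.4 in wild type. The sac3∆ and R288D samples all lay below wild type, and the cdk8∆ samples all lay above it. CYC1 fell by 1.38 ± 0.100 (SE) on the log2 scale in sac3∆ (adjusted p by limma = 8.15e-07) and by 1.21 ± 0.100 in R288D (adjusted p = 2.44e-06), to 38.02% and 43.2% of the wild type mean. In cdk8∆ it rose by 0.31 ± 0.100 (adjusted p by limma = 0.0163), to 125% of wild type. The rise in cdk8∆ no longer passed the test without the first cdk8∆ sample (0.28, limma adjusted p = 0.0602) or without the second wild type sample (0.29, adjusted p = 0.0518), and it was 0.54 with quantile normalization.

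CYC7 (YEL039C), which encodes the iso-2 form of cytochrome c and is known as the form favoured at low oxygen, averaged 183.5 ± 4.44 RPKM in sac3∆, 159 ± 33.6 in R288D and 156 ± 19.2 in cdk8∆, against 143 ± 12.9 in wild type (SD, n = 3 each). Its change from wild type was 0.36 in sac3∆ (adjusted p by limma = 0.0365, and 0.0995 with medians set equal), 0.13 in R288D (adjusted p = 0.437) and 0.12 in cdk8∆ (adjusted p = 0.443), the last 0.35 and past the test with quantile normalization (adjusted p = 0.0432). The ratio of the CYC1 mean to the CYC7 mean was 0.271 in sac3∆, 0.356 in R288D and 1.04 in cdk8∆, against 0.914 in wild type. In every sac3∆ and R288D sample this ratio was below that of every wild type sample, while the cdk8∆ and wild type samples overlapped.

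**Figure D2:**
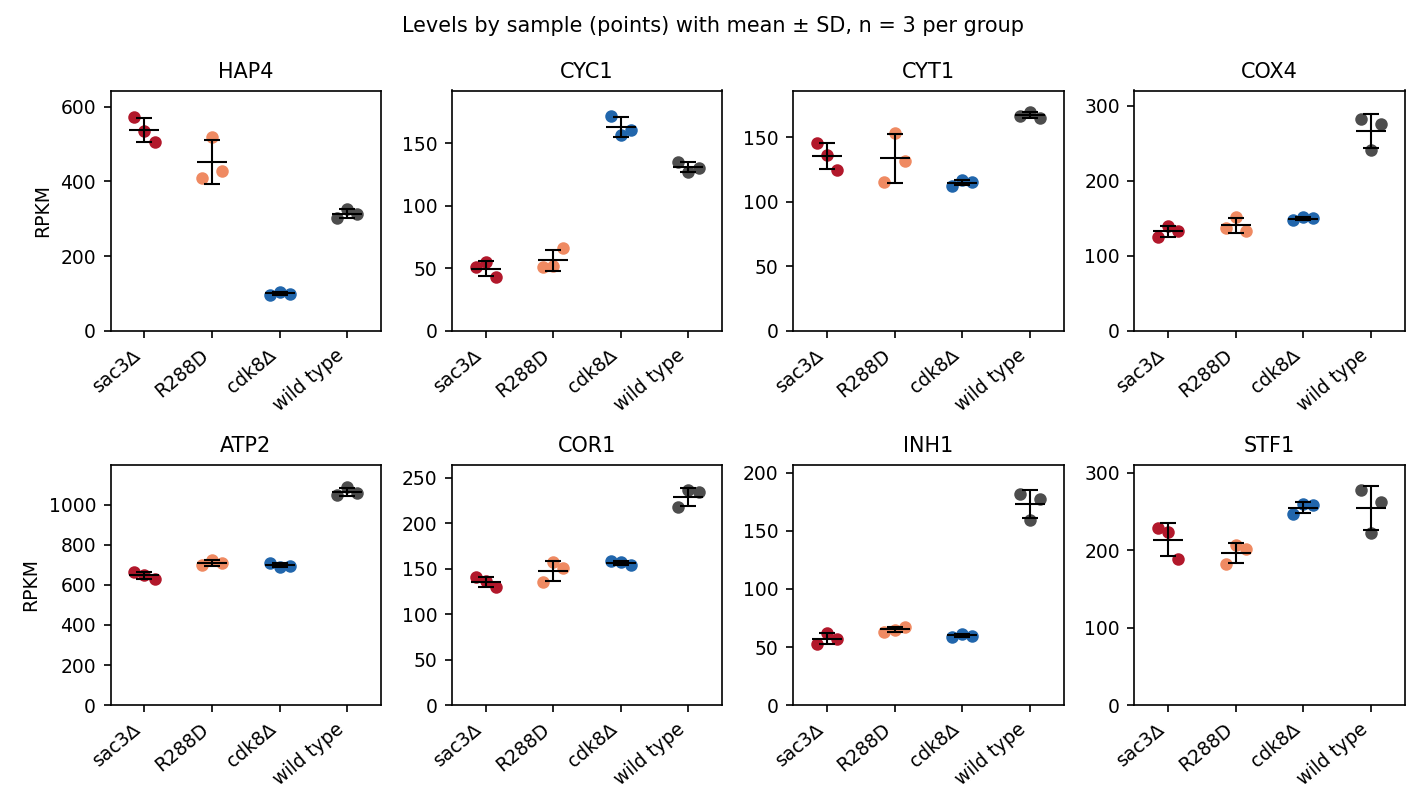
RPKM (linear axis starting at 0) of 8 members in each of the 12 samples, coloured by group, with the mean and SD of the 3 samples of a group in black. HAP4 and CYC1 lie on opposite sides of wild type in the SAC3 mutants and in cdk8∆, while COX4, ATP2, COR1 and INH1 are below wild type in all 9 mutant samples.

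Complex II changed least. Its 4 genes encode the flavoprotein (SDH1), the iron-sulfur subunit (SDH2) and the membrane anchors (SDH3 and SDH4). Of these, 2 were lower in sac3∆, 2 in R288D and 0 in cdk8∆, where none passed an unadjusted p under 0.05 by limma either. With medians set equal 3, 4 and 0 were lower, and with quantile normalization 1, 1 and 0 were, with 1 then higher in cdk8∆. Their summed level was 87.8% of wild type in sac3∆, 86.3% in R288D and 96.5% in cdk8∆. The cdk8∆ median of -0.06 became 0.15 with quantile normalization.

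SDH1 (YKL148C, chromosome XI, 169207 to 171129, minus strand) read 82.9, 75.0 and 88.0 RPKM in sac3∆, 68.9, 97.3 and 78.5 in R288D, 92.9, 98.6 and 92.1 in cdk8∆, and 91.2, 110.05 and 125 in wild type. All sac3∆ samples were below all wild type samples, and the other groups overlapped wild type. The log2 change was -0.40 ± 0.13 in sac3∆ (adjusted p by limma = 0.0206), -0.41 ± 0.13 in R288D (adjusted p = 0.0168) and -0.19 ± 0.13 in cdk8∆ (adjusted p = 0.211). Both calls were lost without the third wild type sample (adjusted p by limma = 0.0886 in sac3∆ and 0.0743 in R288D). The sac3∆ call was also lost without the second sac3∆ sample or the second wild type sample (adjusted p by limma = 0.0767 and 0.0562), and the R288D call without the first R288D sample (0.0655) or with only the groups compared (0.0562).

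SDH2 (YLL041C, chromosome XII, 53131 to 53931, minus strand) read 147, 132 and 129 RPKM in sac3∆, 116, 158 and 125 in R288D, 146, 151 and 140.0 in cdk8∆, and 158, 147 and 159 in wild type. Each mutant group overlapped wild type. Its log2 change was -0.18 in sac3∆ (95% interval -0.39 to 0.03), -0.22 in R288D (-0.43 to -0.02) and -0.08 in cdk8∆ (-0.29 to 0.13), with limma adjusted p of 0.132, 0.0679 and 0.479. With medians set equal SDH2 passed as lower in sac3∆ (-0.27, adjusted p by limma = 0.0296) and in R288D (-0.30, adjusted p = 0.0196), and in sac3∆ also with only the groups compared (adjusted p = 0.039). Without the second R288D sample the R288D change was -0.35 and passed the test (adjusted p by limma = 0.000851). The anchor SDH3 had a change of -0.17 in both sac3∆ and R288D (adjusted p by limma = 0.0314 and 0.0342). With quantile normalization the sign turned, to 0.038 in sac3∆ and 0.039 in R288D, and neither passed (adjusted p = 0.624 and 0.625 by limma). The sac3∆ call was also lost without the second or the third sac3∆ sample, or without the first or the third wild type sample, and the R288D call without the first or the third R288D sample or those same wild type samples. Both were lost with only the groups compared (adjusted p by limma = 0.0575 in sac3∆ and 0.0573 in R288D), and the R288D call with the replicate number as a block (0.0506).

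The summed level of complex III was lower by a similar amount in every mutant, while single genes differed between the SAC3 mutants and cdk8∆. The sum of its 9 genes was 76.4% of wild type in sac3∆, 78.0% in R288D and 76.5% in cdk8∆, and 7, 8 and 7 genes passed the test as lower. With quantile normalization 5, 5 and 3 did, and 2 were then higher in cdk8∆. The lowest and highest changes were -0.75 and -0.14 in sac3∆, -0.64 and -0.08 in R288D, and -0.69 and 0.0066 in cdk8∆.

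COR1 (YBL045C, chromosome II, 134143 to 135516, minus strand) encodes a core protein of complex III. It read 141, 137 and 129.97 RPKM in sac3∆, 135, 157 and 151 in R288D, 158, 158 and 154 in cdk8∆, and 218, 236 and 234 in wild type. No mutant sample reached the lowest wild type sample. COR1 fell by 0.75 ± 0.058 in sac3∆ (adjusted p by limma = 1.29e-06), by 0.64 ± 0.058 in R288D (adjusted p = 4.74e-06) and by 0.55 ± 0.058 in cdk8∆ (adjusted p = 7.29e-06).

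QCR6 (YFR033C, chromosome VI, 224326 to 224769, minus strand) encodes the acidic hinge subunit. Its samples gave 139, 137 and 168 RPKM in sac3∆, 157, 144 and 161 in R288D, 122, 136 and 132 in cdk8∆, and 207, 204 and 219 in wild type. Again all mutant samples were below all wild type samples. The log2 change was -0.51 ± 0.078 in sac3∆, -0.45 ± 0.078 in R288D and -0.69 ± 0.078 in cdk8∆, with limma adjusted p of 0.000207, 0.000569 and 1.24e-05.

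CYT1 (YOR065W, chromosome XV, 447439 to 448368, plus strand) encodes cytochrome c1, which hands electrons to cytochrome c. Its levels were 146, 136 and 125 RPKM in sac3∆, 116, 154 and 132 in R288D, 113, 117 and 116 in cdk8∆, and 167, 169.8 and 165 in wild type. All mutant samples were lower than all wild type samples, and those of cdk8∆ were the lowest on average. CYT1 fell by 0.30 ± 0.085 in sac3∆ (adjusted p by limma = 0.0109), by 0.33 ± 0.085 in R288D (adjusted p = 0.00713) and by 0.54 ± 0.085 in cdk8∆ (adjusted p = 0.000183). With quantile normalization the sac3∆ and R288D changes were -0.16 and -0.19 and did not pass (adjusted p by limma = 0.147 and 0.0933).

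QCR8 (YJL166W, chromosome X, 106434 to 106718, plus strand) encodes a small subunit next to cytochrome b. It stood at 318, 305 and 315 RPKM in sac3∆, 299, 331 and 351 in R288D, 261, 240.4 and 230.1 in cdk8∆, and 343, 337 and 354 in wild type. The cdk8∆ samples were the lowest of all, the sac3∆ samples lay just below wild type, and the R288D samples overlapped it. QCR8 fell by 0.50 ± 0.062 in cdk8∆ (adjusted p by limma = 2.50e-05), and its change was -0.14 in sac3∆ (adjusted p = 0.0768) and -0.08 in R288D (adjusted p = 0.308). The cdk8∆ fall was -0.13 with quantile normalization and did not pass (adjusted p by limma = 0.107), and the sac3∆ change was -0.23 with medians set equal and did (adjusted p = 0.00931), as it did with only the groups compared (adjusted p = 0.0287).

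Complex IV held the subunit gene with the largest fall among the subunits of all complexes, COX4. The sum of its 8 genes was 78.2% of wild type in sac3∆, 77.8% in R288D and 81.5% in cdk8∆, with 6 lower in each. With quantile normalization 3 were lower in sac3∆, 2 in R288D and 3 in cdk8∆, where 3 were then higher and the median of -0.26 became 0.08.

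COX4 (YGL187C, chromosome VII, 149704 to 150171, minus strand) encodes a zinc-binding subunit needed for assembly of the oxidase. It read 125, 140.1 and 133 RPKM in sac3∆, 137, 152 and 133 in R288D, 147, 151 and 149.9 in cdk8∆, and 283, 241 and 275.1 in wild type. All 9 mutant samples lay close together and well below wild type. The log2 change was -0.997 ± 0.069 in sac3∆, -0.91 ± 0.069 in R288D and -0.82 ± 0.069 in cdk8∆, with limma adjusted p of 5.82e-07, 1.23e-06 and 1.05e-06.

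COX5A (YNL052W, chromosome XIV, 531725 to 532186, plus strand) encodes the aerobic form of subunit 5. Its samples gave 106, 119 and 108 RPKM in sac3∆, 109.8, 111 and 121 in R288D, 107, 108 and 110.0 in cdk8∆, and 172, 159 and 161 in wild type. All mutant samples were below all wild type samples. COX5A fell by 0.56 ± 0.055 in sac3∆ (adjusted p by limma = 6.57e-06), by 0.53 ± 0.055 in R288D (adjusted p = 1.23e-05) and by 0.59 ± 0.055 in cdk8∆ (adjusted p = 2.37e-06).

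The alternative form of that subunit, COX5B, known from cells at low oxygen, passed the test as lower in none of the mutants. COX5B (YIL111W) averaged 178 ± 5.81 RPKM in sac3∆, 172 ± 1.48 in R288D and 168 ± 10.2 in cdk8∆, against 160.2 ± 3.97 in wild type (SD, n = 3 each). Its change was 0.15 in sac3∆ (adjusted p by limma = 0.0176, and 0.288 with medians set equal), 0.10 in R288D (adjusted p = 0.0939) and 0.07 in cdk8∆ (adjusted p = 0.226), and with quantile normalization it was 0.24 in R288D and 0.33 in cdk8∆ and passed in both (adjusted p = 0.00151 and 8.34e-05). The ratio of the COX5A mean to the COX5B mean was 0.622 in sac3∆, 0.661 in R288D and 0.643 in cdk8∆, against 1.02 in wild type, and every mutant sample lay below every wild type sample.

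**Figure D3:**
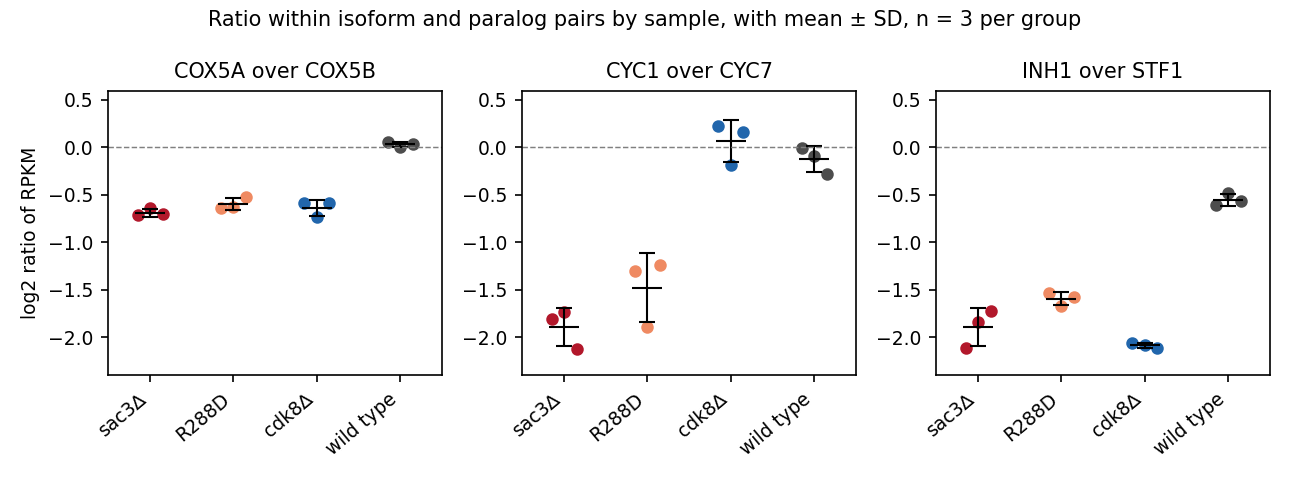
Log2 ratio of RPKM within 3 pairs of related genes in each sample (COX5A over COX5B, CYC1 over CYC7, INH1 over STF1), with the mean and SD of the 3 samples of a group and a dashed line at equal levels. COX5A over COX5B and INH1 over STF1 are lower than wild type in all mutants, and CYC1 over CYC7 is lower in sac3∆ and R288D while cdk8∆ overlaps wild type.

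Complex V, the ATP synthase, had a lower summed level in every mutant. The sum of its 13 genes was 69.3% of wild type in sac3∆, 72.7% in R288D and 68.0% in cdk8∆. In sac3∆ and R288D 11 genes passed the test as lower, and in cdk8∆ all 13 did. With quantile normalization 10, 10 and 8 were lower and 0 higher. The median change of the complex was -0.54 in sac3∆, -0.46 in R288D and -0.56 in cdk8∆. With quantile normalization these medians were -0.32, -0.22 and -0.22. The changes of ATP1 and ATP2, its most abundant genes, were then 0.099 and 0.070 in cdk8∆.

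ATP2 (YJR121W, chromosome X, 647607 to 649142, plus strand) encodes the catalytic beta subunit and was the most abundant member. It read 665, 648 and 629 RPKM in sac3∆, 697, 725 and 708 in R288D, 709, 691 and 693 in cdk8∆, and 1047, 1087 and 1060.4 in wild type. Each mutant group was far below wild type, with little spread inside it. ATP2 fell by 0.72 ± 0.042 in sac3∆ (adjusted p by limma = 1.62e-07), by 0.58 ± 0.042 in R288D (adjusted p = 8.77e-07) and by 0.61 ± 0.042 in cdk8∆ (adjusted p = 1.84e-07). In cdk8∆ the change was 0.070 with quantile normalization (adjusted p by limma = 0.338).

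ATP14 (YLR295C, chromosome XII, 721999 to 722373, minus strand) encodes a subunit of the peripheral stalk. Its levels were 209, 218 and 199 RPKM in sac3∆, 222, 206 and 214 in R288D, 177, 177 and 171 in cdk8∆, and 283, 276 and 295 in wild type. All cdk8∆ samples were lowest, those of the SAC3 mutants between, and those of wild type highest. The log2 change was -0.45 ± 0.047 in sac3∆, -0.41 ± 0.047 in R288D and -0.70 ± 0.047 in cdk8∆, with limma adjusted p of 1.16e-05, 2.31e-05 and 1.53e-07.

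ATP18 (YML081C-A, chromosome XIII, 103983 to 104162, minus strand) encodes a small membrane subunit. It read 316, 340.3 and 317 RPKM in sac3∆, 337, 271 and 307 in R288D, 224, 251 and 215 in cdk8∆, and 362, 317 and 340.1 in wild type. The sac3∆ and R288D samples overlapped wild type, and the cdk8∆ samples were below all others. ATP18 fell by 0.56 ± 0.083 in cdk8∆ (adjusted p by limma = 0.000101), and its change was -0.07 in sac3∆ (95% interval -0.25 to 0.12, adjusted p = 0.534) and -0.16 in R288D (-0.34 to 0.02, adjusted p = 0.130). The R288D change passed the test without the first R288D sample (-0.23, limma adjusted p = 0.0331) and with medians set equal (-0.23, adjusted p = 0.036).

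**Figure D4:**
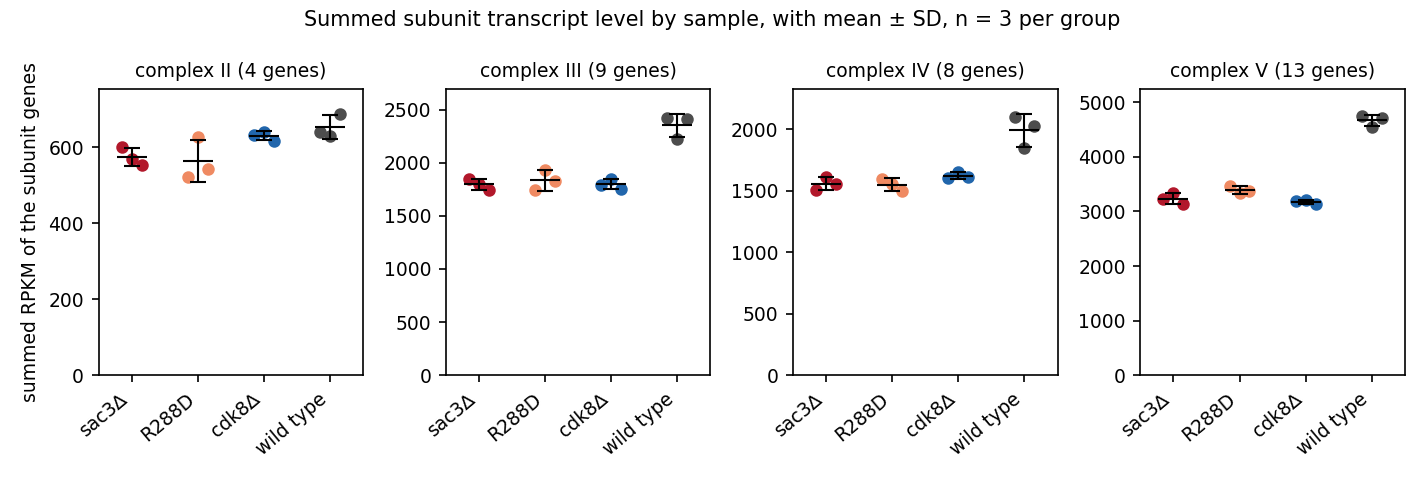
Summed RPKM of the subunit genes of complexes II, III, IV and V (4, 9, 8 and 13 genes, linear axes starting at 0) in each sample, with the mean and SD of the 3 samples of a group. The sums of complexes III, IV and V are below wild type in all 9 mutant samples, and in complex V they stand at 69.3%, 72.7% and 68.0% of the wild type mean in sac3∆, R288D and cdk8∆.

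The inhibitors of the ATP synthase did not move alike. INH1 (YDL181W, chromosome IV, 135179 to 135436, plus strand) encodes the protein that blocks ATP hydrolysis by the enzyme when the membrane potential is lost. It read 52.6, 62.2 and 57.1 RPKM in sac3∆, 63.0, 65.0 and 67.3 in R288D, 58.9, 61.5 and 59.5 in cdk8∆, and 182, 159 and 177 in wild type. All 9 mutant samples lay together, far below all wild type samples. INH1 fell by 1.58 ± 0.065 in sac3∆ (adjusted p by limma = 1.00e-08), by 1.39 ± 0.065 in R288D (adjusted p = 2.68e-08) and by 1.51 ± 0.065 in cdk8∆ (adjusted p = 4.78e-09). Its mean was 33.1%, 37.7% and 34.7% of wild type in these mutants.

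STF1 (YDL130W-A, chromosome IV, 229171 to 229431, plus strand) encodes a protein related to Inh1 that can stand in for it at the enzyme. Its samples gave 228, 223 and 189 RPKM in sac3∆, 182, 206 and 201 in R288D, 247, 259.6 and 258 in cdk8∆, and 277, 223 and 262 in wild type. The R288D samples were below wild type, and the sac3∆ and cdk8∆ samples overlapped it. The log2 change was -0.25 ± 0.088 in sac3∆ (adjusted p by limma = 0.0336), -0.36 ± 0.088 in R288D (adjusted p = 0.00475) and 0.01 ± 0.088 in cdk8∆ (adjusted p = 0.925). The sac3∆ call was lost without the third sac3∆ sample or without the first or the third wild type sample (adjusted p by limma = 0.138, 0.136 and 0.0956), with only the groups compared (0.0625) and with the replicate number as a block (0.0556). With quantile normalization neither fall passed (adjusted p by limma = 0.726 in sac3∆ and 0.135 in R288D), and the cdk8∆ change was 0.38 and did (adjusted p = 0.00181). The ratio of the INH1 mean to the STF1 mean was 0.268 in sac3∆, 0.331 in R288D and 0.235 in cdk8∆, against 0.681 in wild type.

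Between the SAC3 mutants no member differed past the threshold. By limma, 0 of 38 were lower and 0 higher in sac3∆ than in R288D, against a background of 1.05% lower and 0.327% higher, and 6 had an unadjusted p under 0.05. All 3 sac3∆ samples lay below all 3 R288D samples in 7 members and above them in 0, against 7.04% and 5% of all features. The differences ranged from -0.18 for INH1 (95% interval -0.33 to -0.04) to 0.26 for HAP4, with a median of -0.04. For CYC1 the difference was -0.18 (95% interval -0.40 to 0.04), for ATP2 -0.13 (-0.23 to -0.04) and for COX4 -0.08 (-0.24 to 0.07). These intervals bound the differences and do not show equal levels.

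Against cdk8∆ the SAC3 mutants differed in both directions. In sac3∆ 11 members (28.9%) were lower and 7 (18.4%) higher than in cdk8∆, where 31.2% and 32.9% of all features were. In R288D 7 (18.4%) were lower and 8 (21.1%) higher, against 31.4% and 32.3%. By this test the members thus differed no more often than all features did. In 14 members the sac3∆ samples all lay below the cdk8∆ samples and in 9 all above, against 35.7% and 36.8% of all features. For R288D these counts were 8 and 12, against 34.2% and 34.9%. The differences were led by HAP4, higher by 2.41 ± 0.080 in sac3∆ and by 2.15 ± 0.080 in R288D (adjusted p by limma = 4.03e-10 and 9.90e-10), and CYC1, lower by 1.70 ± 0.100 and 1.52 ± 0.100 (adjusted p = 4.15e-08 and 1.05e-07). Among the other members, COX7, the gene of a small subunit of complex IV, differed by -0.28 in sac3∆ and -0.46 in R288D (adjusted p by limma = 0.0377 and 0.00249), and in sac3∆ the call was lost with the replicate number as a block (0.0521), with no mean trend (0.0506) and in 5 of the 6 settings that left out a sac3∆ or cdk8∆ sample, all but the second sac3∆ sample. ATP18 was higher by 0.50 in sac3∆ and 0.40 in R288D (adjusted p by limma = 0.000245 and 0.00113), and QCR8, higher by 0.36 and 0.42 (adjusted p = 0.000312 and 9.32e-05). ATP14 was higher by 0.25 and 0.29 (adjusted p by limma = 0.00055 and 0.000213). INH1 and COX5A did not differ past the threshold, with intervals of -0.21 to 0.07 and -0.09 to 0.15 for sac3∆ minus cdk8∆. Apart from HAP4 and CYC1, no member differed by more than 0.50. With quantile normalization 19 members were lower and 4 higher than cdk8∆ in each SAC3 mutant, where 34.39% and 31.91% of all features were in sac3∆ and 34.78% and 32.36% in R288D. The 11 members lower in sac3∆ became 5 without the third sac3∆ sample, and 7, 6 and 7 without the first, the second and the third cdk8∆ sample. The 7 higher in sac3∆ became 4 without the third cdk8∆ sample, and the 7 lower in R288D became 4 without the first R288D sample.

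**Figure D5:**
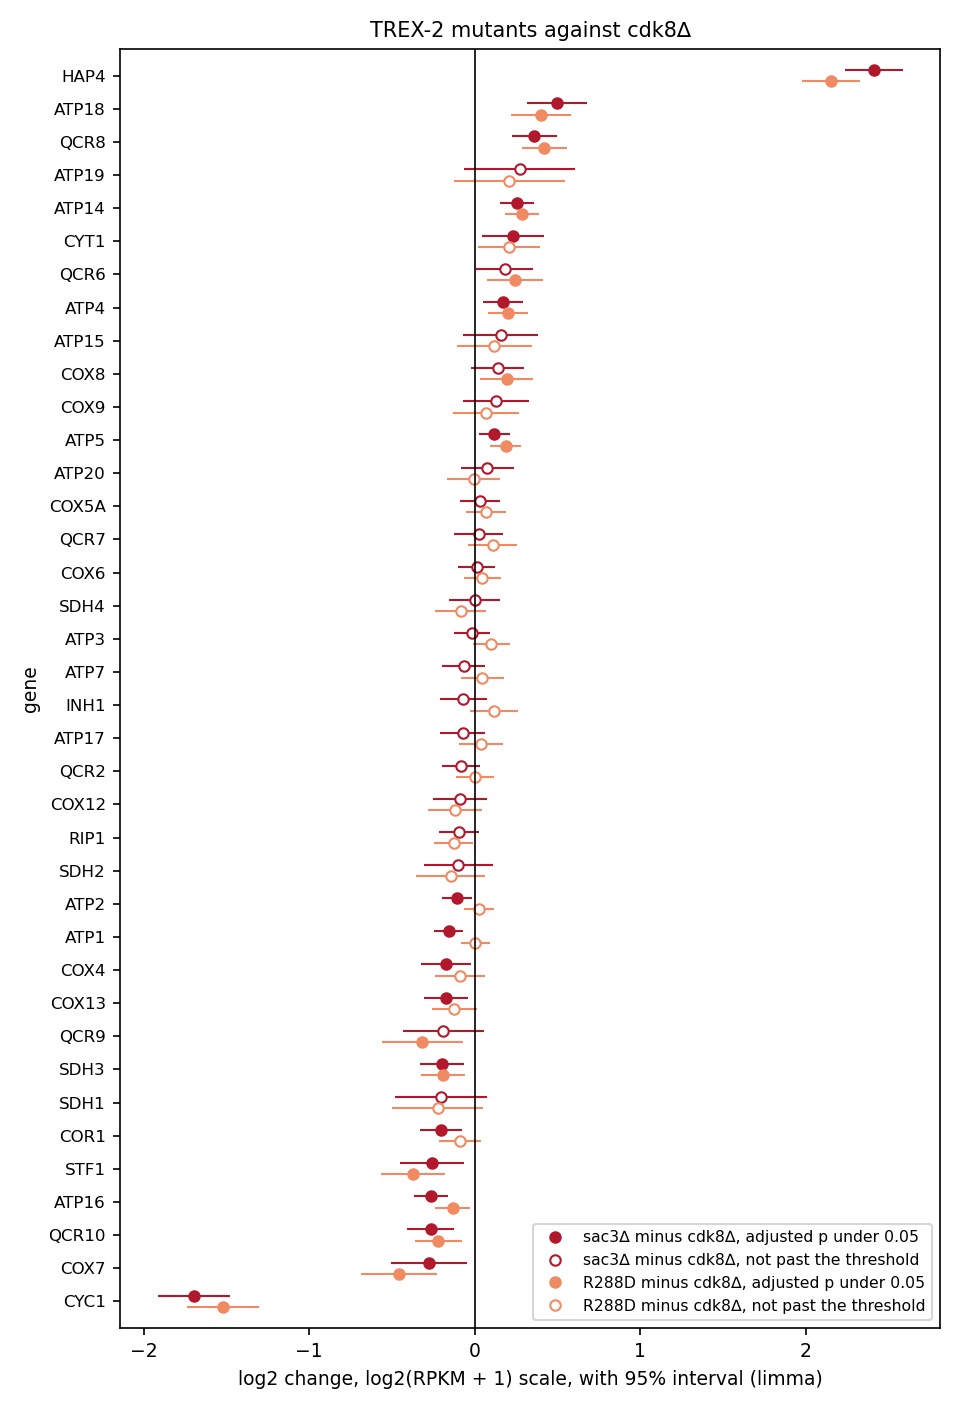
Log2 difference of each member between sac3∆ and cdk8∆ (dark red) and between R288D and cdk8∆ (orange), on the log2(RPKM + 1) scale with 95% intervals from limma, filled at an adjusted p under 0.05 and open otherwise, with genes sorted by the sac3∆ value. HAP4 is far to the right and CYC1 far to the left, and all other members lie within 0.50 of 0.

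Genes that serve the chain were also counted in 8 lists, to be read beside the background shares given above for each scaling. Among 41 assembly factors of complexes II to V, 17 rose and 2 fell in sac3∆, 13 and 2 in R288D, and 13 and 5 in cdk8∆, with medians of 0.12, 0.09 and 0.06. The shares that rose were 41.5%, 31.7% and 31.7%, against 27.4%, 26.3% and 31.5% of all features, so the cdk8∆ share was near the background. With medians set equal these counts were 9 and 3, 6 and 3, and 9 and 5, where 19.35%, 19.74% and 26.83% of all features were higher. By that scaling the share that rose was near or below the background in each mutant. With quantile normalization the counts were 13 and 5, 11 and 3, and 15 and 3, where 22.62%, 21.15% and 29.56% of all features were higher. CYT2, the heme lyase for cytochrome c1, rose by 0.76 in sac3∆ and 0.68 in R288D (adjusted p by limma = 5.97e-06 and 1.51e-05), and its change in cdk8∆ was 0.05 (adjusted p = 0.538). COX15, an enzyme of heme A synthesis, rose by 0.31, 0.23 and 0.42 in the 3 mutants (adjusted p by limma = 0.00063, 0.00398 and 3.92e-05). COX16 rose by 0.64 in cdk8∆ (adjusted p by limma = 3.82e-05).

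Of 16 genes for translation and processing of mitochondrial mRNAs, 8 rose and 1 fell in sac3∆, 7 and 2 in R288D, and 5 and 3 in cdk8∆. The share that rose in cdk8∆, 31.25%, was near the 31.5% of all features. With quantile normalization 3 rose and 4 fell in cdk8∆. PET111, the translational activator of COX2 mRNA, rose by 0.76 in sac3∆ and 0.65 in R288D (adjusted p by limma = 6.06e-06 and 2.14e-05). NCA3, linked to expression of the mitochondrial ATP6 and ATP8, moved in opposite directions, with changes of 1.34 in sac3∆, 1.64 in R288D and -0.98 in cdk8∆ (adjusted p by limma = 4.34e-07, 9.10e-08 and 2.03e-06). CBS1, an activator of cytochrome b mRNA, rose by 0.52 in cdk8∆ and fell by 0.24 in R288D (adjusted p by limma = 9.08e-06 and 0.00373).

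The carriers that exchange substrates of the ATP synthase were split. Of 6 genes, 4 fell and 1 rose in sac3∆ and in R288D, and 4 fell and 2 rose in cdk8∆. PET9, the main ADP/ATP carrier, fell by 0.56 in sac3∆, 0.52 in R288D and 1.01 in cdk8∆ (adjusted p by limma = 1.65e-06, 3.50e-06 and 5.72e-09). PIC2, a carrier of phosphate and copper, rose by 0.55 in sac3∆ and 0.42 in R288D and fell by 1.24 in cdk8∆ (adjusted p by limma = 1.67e-05, 0.000143 and 1.15e-08). POR1, the outer membrane porin, had changes of -0.47, -0.40 and -0.71 (adjusted p by limma = 6.48e-06, 2.36e-05 and 1.09e-07), and with quantile normalization the falls in R288D and cdk8∆ did not pass (-0.079 and -0.0067).

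In the TCA cycle, 7 of 13 genes fell in each mutant, while 3 rose in sac3∆, 4 in R288D and 3 in cdk8∆. With quantile normalization 5, 6 and 3 were lower and 4, 5 and 6 higher, and the cdk8∆ median of -0.26 became 0.11. ACO1, aconitase, rose by 0.39 in sac3∆ and 0.29 in R288D and fell by 0.91 in cdk8∆ (adjusted p by limma = 2.72e-05, 0.00025 and 1.52e-08). MDH1, the mitochondrial malate dehydrogenase, had changes of -0.38, -0.34 and -0.91 (adjusted p by limma = 5.93e-05, 0.000137 and 2.46e-08). CIT3, a mitochondrial citrate and methylcitrate synthase, rose by 3.02 in cdk8∆ (adjusted p by limma = 1.42e-07), to 114 RPKM against 13.4 in wild type.

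Electrons also enter through the external NADH dehydrogenases and other oxidoreductases, and of 7 such genes 3 rose and 1 fell in each mutant. In each, 42.9% rose, against 27.4%, 26.3% and 31.5% of all features, and 14.3% fell, against 24.1%, 24.4% and 30.6%. With medians set equal 2 rose and 2 fell in sac3∆, 1 rose and 2 fell in R288D, and 3 rose and 2 fell in cdk8∆. With quantile normalization R288D had 2 higher and 0 lower. NDE1 fell by 0.86 in cdk8∆ (adjusted p by limma = 2.43e-06) while its paralog NDE2 rose by 1.48 there (adjusted p = 2.29e-05). CYB2, which passes electrons of lactate to cytochrome c, rose by 1.10 in sac3∆, 0.98 in R288D and 1.02 in cdk8∆ (adjusted p by limma = 0.000362, 0.000873 and 0.000439). Of 18 genes of heme and ubiquinone synthesis, 6 fell and 1 rose in sac3∆ and in R288D, and 1 fell and 4 rose in cdk8∆. The shares that fell were 33.3%, 33.3% and 5.56%, against 24.1%, 24.4% and 30.6% of all features. Those that rose were 5.56%, 5.56% and 22.2%, against 27.4%, 26.3% and 31.5%. With medians set equal 11, 10 and 2 were lower, and with quantile normalization 0 were lower and 10 higher in cdk8∆. HEM3, an enzyme of early heme synthesis, fell by 0.43 in sac3∆ and 0.39 in R288D (adjusted p by limma = 4.00e-06 and 8.01e-06), with 0.03 in cdk8∆ (adjusted p = 0.576). HEM15, ferrochelatase, had changes of -0.39, -0.30 and -0.21 (adjusted p by limma = 1.84e-05, 0.000129 and 0.00128), and with quantile normalization its R288D change did not pass (adjusted p = 0.0584) and its cdk8∆ change was 0.12 and passed upward (adjusted p = 0.0271). COQ6, a hydroxylase of ubiquinone synthesis, rose by 0.27, 0.15 and 0.21 (adjusted p by limma = 0.000167, 0.00759 and 0.000774), the R288D rise not with medians set equal.

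Among 9 regulators of respiratory genes other than HAP4, 3 rose and 1 fell in sac3∆, 2 rose and 1 fell in R288D, and 2 rose and 4 fell in cdk8∆. The shares that rose were 33.3%, 22.2% and 22.2%, against 27.4%, 26.3% and 31.5% of all features. Those that fell were 11.1%, 11.1% and 44.4%, against 24.1%, 24.4% and 30.6%. Equal medians left 1 higher in sac3∆ and 1 in R288D. ROX1, the repressor of hypoxic genes, rose by 1.03 in sac3∆ and 0.86 in R288D and fell by 0.24 in cdk8∆ (adjusted p by limma = 4.96e-07, 2.19e-06 and 0.00934). HAP1, the heme-responsive activator that acts on CYC1 and CYT1, fell by 0.72 in cdk8∆ (adjusted p by limma = 1.03e-07), and rose by 0.14 in sac3∆ and 0.17 in R288D (adjusted p = 0.0268 and 0.00782), neither with medians set equal (adjusted p = 0.413 and 0.0787). HXK2, hexokinase, which also takes part in glucose repression, had changes of -0.66, -0.62 and -0.59 (adjusted p by limma = 9.36e-07, 1.77e-06 and 8.95e-07), and with quantile normalization its cdk8∆ change was 0.12 and passed the test upward (adjusted p = 0.0231). Of 9 isoforms and later-found subunits outside the 38, 1 fell and 3 rose in sac3∆, 1 fell and 0 rose in R288D, and 3 fell and 2 rose in cdk8∆. Thus 11.1%, 11.1% and 33.3% fell and 33.3%, 0% and 22.2% rose, beside the same shares of all features. Equal medians gave 1 higher in sac3∆ and 3 lower in R288D. STF2, named as a stabilizing factor of the ATP synthase, and RCF2, a factor of the chain's supercomplexes, fell by 1.17 and 0.53 in cdk8∆ (adjusted p by limma = 3.80e-07 and 3.38e-05). SHH4, a paralog of SDH4, rose there by 0.73 (adjusted p by limma = 0.00281).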

How the data were processed

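The 12 samples (3 each of sac3∆, R288D, cdk8∆ and wild type) share 1 deposited table of RPKM values made by the authors. Per the submitters' processing notes, TopHat2 2.0.9 and HTSeq 0.5.4p3 were used, along with R 3.0.1, edgeR, limma and build R64, and no step is assigned to them. Per the labels' protocols, RNA came from hot phenol extraction, followed by removal of ribosomal RNA. How strand was treated in counting, and whether replicates were separate cultures, is not given in the sources used here, so a p-value speaks of the spread among samples, which may be technical. Multiplied by exon length, the values step in units of 1 read, with 99.34 to 99.67% of those under 300 reads whole to within 0.1 read. Depth and library scaling were inferred from these steps.

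Tests used log2(RPKM + 1), which understates changes of scarce genes, on the 6124 features averaging 1 RPKM or more. All 12 samples entered 1 model of group means (limma 3.58.1, R 4.3.3, 8 residual degrees of freedom, trended eBayes). Tests were two-sided and adjusted by Benjamini-Hochberg over all features in each of 6 comparisons. The fit was tested on simulated data. Of 7126 features, 6162 matched the R64 annotation and 964 did not, and no member overlapped another annotated gene. Upstream sequence came from the R64 genome of RefSeq, before the start codon. Python 3.11.15 served for tables (numpy 2.4.6, pandas 2.3.3) and drawing (matplotlib 3.10.9).

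The 38 members and the 8 lists of related genes were chosen with earlier results of these data known. Values in every sample are given for CYC1, CYT1, HAP4, INH1 and STF1, the 2 genes of each complex with the largest change from wild type, any member called against most called members of its complex, and the 3 called members with the lowest adjusted p in each comparison between mutants. From each list up to 3 called genes with the lowest adjusted p are named, and HAP2, HAP3, HAP5 and the neighbouring genes were chosen after their values were seen. The 9 alternatives changed the pseudocount (0.1 or 5), the filter (none, or 10 RPKM), the scaling (equal medians, or quantiles), the samples fitted (just the pair compared), the variance trend (none) or the replicate number (as a block). Another 12 each left out 1 sample.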

Additional observations from a re-analysis of the deposited data

How the results depend on the processing

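Of the 9 alternatives other than leaving out a sample, quantile normalization alone moved a count over all 38 members by more than 1.5 times, and with medians set equal the complex II genes lower in R288D went up to 4, against 2 as reported. Under it 16 members were lower and 8 higher in cdk8∆ than in wild type, 19 lower and 4 higher in sac3∆ than in cdk8∆, and 19 lower and 4 higher in R288D than in cdk8∆. It also turned 15 single changes to the other sign, each called before or after. Against wild type these became 0.099 for ATP1, 0.070 for ATP2, 0.021 for ATP16, 0.042 for COX6, 0.35 for COX7, 0.11 for COX9, 0.19 for COX13 and 0.34 for QCR9 in cdk8∆, and for SDH3 0.038 in sac3∆ and 0.039 in R288D. Against cdk8∆ they became -0.26 for ATP1, -0.28 for ATP2, -0.16 for ATP7 and -0.12 for QCR2 in R288D, and -0.16 for QCR7 in sac3∆. The cause was not tested. HAP4, CYC1 in sac3∆ and R288D, INH1, COR1, QCR6, COX4, COX5A and ATP14 kept their direction and call against wild type in every alternative run. Leaving out 1 sample at a time, 24 to 29 members were lower in sac3∆ than in wild type. In the same settings 21.26 to 22.64% of all features were lower and 24.22 to 25.44% higher. R288D had 27 to 31 members lower than wild type, beside 21.26 to 25.45% of all features lower and 23.2 to 25.73% higher. For cdk8∆ 25 to 28 members were lower than wild type and 0 to 1 higher. Of all features, 27.88 to 29.01% were then lower and 27.47 to 29.6% higher. Against cdk8∆, 5 to 10 members were lower and 4 to 7 higher in sac3∆, and 4 to 10 and 6 to 9 in R288D. The shares of all features there were 27.86 to 29.58% lower and 29.48 to 31.23% higher in sac3∆. For R288D they were 28.26 to 31.93% and 29.53 to 33.25%. Between sac3∆ and R288D, 0 were lower and 0 to 1 higher, the 1 being HAP4 without the second R288D sample. In these settings 0.685 to 3.771% of all features were lower and 0.1794 to 3.885% higher. Replicate numbers did not pair the samples (correlations of same-numbered deviations -0.29 to 0.16), and with the number as a block 28, 29 and 27 members were lower and 1 each higher in sac3∆, R288D and cdk8∆ than in wild type. With that block 23.42%, 23.55% and 30.01% of all features were lower and 26.96%, 25.59% and 30.81% higher. No member had fewer than 232 reads in a sample.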

Other observations

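Among neighbours of the 38 genes in the R64 annotation, FIG1 in sac3∆, R288D and cdk8∆ and ANB1 in cdk8∆ moved far more than the members beside them. ANB1, a hypoxic gene that is transcribed away from CYC1 with 953 bases between them, rose by 2.55 on the log2 scale in cdk8∆ (adjusted p by limma = 1.19e-09), and its changes in sac3∆ and R288D were 0.21 and 0.20 (adjusted p = 0.0717 and 0.0861). FIG1, a mating gene 457 bases downstream of ATP3, rose by 3.44 in sac3∆, 3.61 in R288D and 1.85 in cdk8∆ (adjusted p by limma = 2.76e-10, 2.77e-10 and 1.77e-08), while the changes of ATP3 were -0.67, -0.56 and -0.66. INH1 and STF1 each lie 455 bases downstream of a homocitrate synthase gene of lysine synthesis on the same strand. LYS20, before INH1, had changes of -0.88, -0.79 and -1.57 in sac3∆, R288D and cdk8∆ (adjusted p by limma = 1.60e-06, 3.97e-06 and 5.72e-09), and LYS21, before STF1, of -0.58, -0.33 and -0.42 (adjusted p = 1.58e-05, 0.00107 and 0.000121).

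Members with and without a CCAAT in the 300 bases before the start codon both had median changes below 0. Not all fell: HAP4, with the letters, rose in sac3∆ and R288D, and CYC1, without them, rose in cdk8∆. The median change was -0.40, -0.40 and -0.47 in sac3∆, R288D and cdk8∆ for the 33 with the letters, and -0.75, -0.64 and -0.54 for the 5 without. The members are short, with a median exon length of 445.5 bases against 1203 over the matched features tested. Across the 38 genes, the Spearman correlation of the change with exon length was -0.32 in sac3∆, -0.20 in R288D and -0.27 in cdk8∆, against 0.20, 0.23 and 0.03 over 5755 features. Genes of 1 sample share its library and are not independent replicates, so these values are descriptions.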
